A study of Drosophila melanogaster with 2 samples.

Results

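The genes described here encode the proteins of the large subunit of the cytoplasmic ribosome in Drosophila melanogaster. They were chosen by name, as protein-coding genes of the Ensembl annotation whose symbol begins with RpL. RpLP0-like, which encodes a ribosome assembly factor, was left out. The rule gave 53 genes of 13945 protein-coding genes on the 6 chromosome arms. It keeps RpL7-like and RpL24-like, although these are related to yeast ribosome assembly factors. Chromatin came from whole embryos, 0 to 16 h old and of mixed sex, of a transgenic line that stably expresses Mes4 with GFP at its C terminus (eGFP in the sample description). Sonication broke it into fragments of 200 to 800 bp, and an anti-GFP antibody pulled down the fusion protein with its DNA. Mes4 is listed in the RefSeq gene table as a synonym of PolE4, which encodes a small protein with a histone fold. There is a single group with 2 samples, numbered by the submitters as biological replicates 3 and 4 and recorded as separate biosamples of the same fly line. A whole embryo of this age range mixes all its cell types, and no sample of an untagged line was analysed here. The authors deposited a relaxed list of 30000 peaks for each replicate and for their pooled reads. An optimal list, thresholded by the irreproducible discovery rate (IDR), keeps the strongest 3207 of the pooled peaks. Peaks are ranked here by the authors' signal value, with rank 1 the strongest, and a gene is called bound where any of its transcription start sites (TSSs) had an optimal summit no more than 500 bp away. The files hold no read counts, so the depth is unknown, and a lone group allows no comparison of conditions and no test.

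The large subunit joins amino acids into protein. Its proteins wrap ribosomal RNA, line the tunnel through which the new chain leaves, form a stalk that recruits translation factors, and hold the 5S ribosomal RNA in place. Their genes are among the most actively transcribed in dividing cells, and loss of a copy of many of them gives the slow-growing Minute flies. In flies most of these genes start transcription at a pyrimidine-rich TCT initiator in place of the usual initiator. Some are duplicated, and some copies, such as RpL22-like, are known mainly from the testis.

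The starts of 10 members are printed first, because 31 of the 44 bound members had their summit on this stretch and because copies of a gene with and without a peak can be compared by eye. Each sequence is from the Release 6 RefSeq genome (dm6 coordinates), runs 5' to 3' on the gene's own strand, and covers the 60 bases before the annotated TSS and the 20 bases from it on. The capitals mark the match to the TCT initiator that was nearest to the TSS. RpL23A lies at chr3L:1668635-1668714 on the minus strand, RpL14 at chr3L:8600946-8601025 on the plus strand, RpL13A at chr3R:5624414-5624493 on the plus strand and RpL22 at chrX:765111-765190 on the minus strand. These 4 starts carried strong peaks. The pair RpL34b (chr3R:9401207-9401286, minus strand) and RpL34a (chr3R:26059248-26059327, minus strand) had a peak at each copy. Of the pair RpL10Ab (chr3L:11822791-11822870, plus strand) and RpL10Aa (chr3R:15037306-15037385, plus strand), only the former had one. RpL6 (chr3R:31596185-31596264, minus strand) and RpL40 (chr2L:4227639-4227718, plus strand) had weaker peaks outside the optimal list.
RpL23A: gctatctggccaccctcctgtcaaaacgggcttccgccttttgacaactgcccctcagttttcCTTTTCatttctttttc
RpL14: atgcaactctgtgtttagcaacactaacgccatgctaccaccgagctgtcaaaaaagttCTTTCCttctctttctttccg
RpL13A: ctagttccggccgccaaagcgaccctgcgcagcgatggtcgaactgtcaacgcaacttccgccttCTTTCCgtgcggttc
RpL22: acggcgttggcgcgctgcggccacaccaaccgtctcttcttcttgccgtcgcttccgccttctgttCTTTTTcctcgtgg
RpL34b: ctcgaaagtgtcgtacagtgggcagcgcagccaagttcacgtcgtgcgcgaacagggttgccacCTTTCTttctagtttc
RpL34a: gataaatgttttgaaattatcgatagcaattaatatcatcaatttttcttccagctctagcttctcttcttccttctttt
RpL10Ab: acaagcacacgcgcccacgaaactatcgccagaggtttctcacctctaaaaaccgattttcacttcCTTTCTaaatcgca
RpL10Aa: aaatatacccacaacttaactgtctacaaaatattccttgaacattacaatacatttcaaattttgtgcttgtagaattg
RpL6: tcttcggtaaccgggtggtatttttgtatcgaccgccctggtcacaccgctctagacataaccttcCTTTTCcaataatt
RpL40: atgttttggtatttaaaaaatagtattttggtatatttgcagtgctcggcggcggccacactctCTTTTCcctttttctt
RpL34a and RpL10Aa show no capitals, since the search found no match within 10 bp of their TSSs. The summits of RpL23A (-82) and RpL34a (-94) lay upstream of the printed bases. RpL34a is bound although it has no match, and RpL6 and RpL40 are not although they have a match.

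Most large subunit genes were bound, and many of them strongly. Of the 53, 44 had an optimal IDR peak at a TSS (83.0%, 95% Wilson interval 70.8 to 90.8), against 15.1% of all protein-coding genes. A peak of rank 500 or better lay at 31 of them (58.5%), against 2.72% of all protein-coding genes. The median rank of the 44 bound members was 267, and their ranks ran from 13 to 2557. The 2057 other bound protein-coding genes had a median rank of 1543. In the pooled relaxed list 49 members had a peak (92.5%), against a background of 54.6%. The interval covers the counting of genes only, and genes are not replicates.

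**Figure D1:**
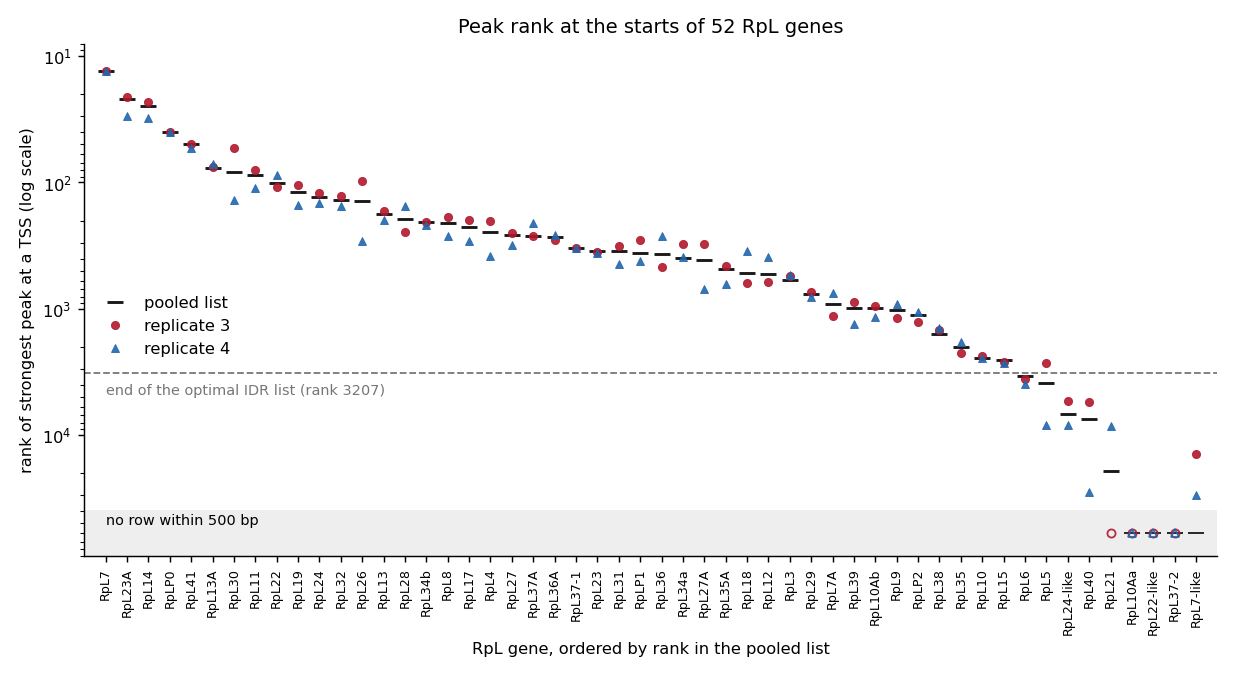
Rank of the strongest peak within 500 bp of a TSS for 52 of the 53 RpL genes (horizontal axis, ordered by pooled rank) on a log scale with strong peaks at the top. Black bars are the pooled list, red circles replicate 3 and blue triangles replicate 4, and marks in the grey band (bars or open symbols) had no row within 500 bp. The 43 genes from RpL7 to RpL15 lie above the end of the optimal list at rank 3207.

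The strongest peaks ranked alike in both replicates. RpL7 (FBgn0005593) led with a signal value of 592 in replicate 3 and 409 in replicate 4, and stood at rank 13 in each of these lists and in the pooled one (2L, 10200846 to 10201208). RpL23A (FBgn0026372), at the rim of the exit tunnel, had signal values of 512 and 307 and ranks 21 and 30 (3L, 1668561 to 1668909). RpL14 (FBgn0017579) had 500 and 307 and ranks 23 and 31 (3L, 8600793 to 8601149). Signal values are the authors' own, on a scale that is not stated, so only the ranks can be set side by side between lists. The next were RpLP0, the core of the stalk, at rank 40 in both replicates (3L, 22075900 to 22076231), and RpL41, the smallest protein of the subunit, at ranks 50 and 53 (2R, 24903830 to 24904164). RpL13A followed with ranks 76 and 72 (3R, 5624233 to 5624621) and RpL30 with ranks 53 and 138 (2L, 19009117 to 19009457). RpL11, a partner of the 5S RNA, had ranks 80 and 110 (2R, 19442179 to 19442442), and RpL22 ranks 108 and 87 (X, 765024 to 765330). Of these 9 members, RpL30 alone had ranks that differed by more than 1.5 times between the replicates.

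Members of different roles in the ribosome were spread over the whole range of ranks. The roles were assigned from general knowledge of eukaryotic ribosomes, after the ranks were known. Among 8 proteins of the exit tunnel or its rim, all bound, pooled ranks ran from RpL23A at 22 through RpL19 at 118, RpL26 at 141, RpL17 at 227, RpL4 at 247, RpL31 at 350 and RpL39 at 980 to RpL35 at 2016. The stalk and its base were bound at all 4 genes, with RpLP0 at 40, RpLP1 at 364, RpL12 at 531 and RpLP2 at 1118. RpLP1 and RpLP2, which act in the stalk as a dimer, thus stood at different strengths. The 5S RNA partners differed: RpL11 stood at 88, while RpL5, which binds the same RNA, had its peak at 3878, outside the optimal list. Near the catalytic centre RpL8 stood at 209, RpL3 at 592 and RpL10 at 2457. RpL40, which is made as a fusion with ubiquitin, was not bound, with a pooled rank of 7417.

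The other bound members filled the range between. RpL24 (rank 131), RpL32 (138), RpL13 (177), RpL28 (194), RpL34b (205), RpL27 (259), RpL37A (263), RpL36A (271), RpL37-1 (330), RpL23 (348), RpL36 (367), RpL34a (394), RpL27A (414) and RpL35A (488) ranked within the first 500 of the pooled list. RpL18 (525), RpL29 (768), RpL7A (918), RpL10Ab (991) and RpL9 (1015) came next. RpL38 (1572) and RpL15 (2557) were near the weak end, as were RpL35 and RpL10. The last members inside the optimal list were RpL35, RpL10 and RpL15, with pooled signal values of 112, 100 and 98.2, and the members that follow them outside it were RpL6 and RpL5, with 82.2 and 76.2. The list thus ended between values that lie close together. Every arm but the small chromosome 4 held members: 9 of 13 were bound on 2L, 11 of 13 on 2R, 10 of 10 on 3L, 8 of 11 on 3R and 6 of 6 on X. The share of all protein-coding genes bound on each arm was not counted, so no difference between arms can be read from these counts.

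**Figure D2:**
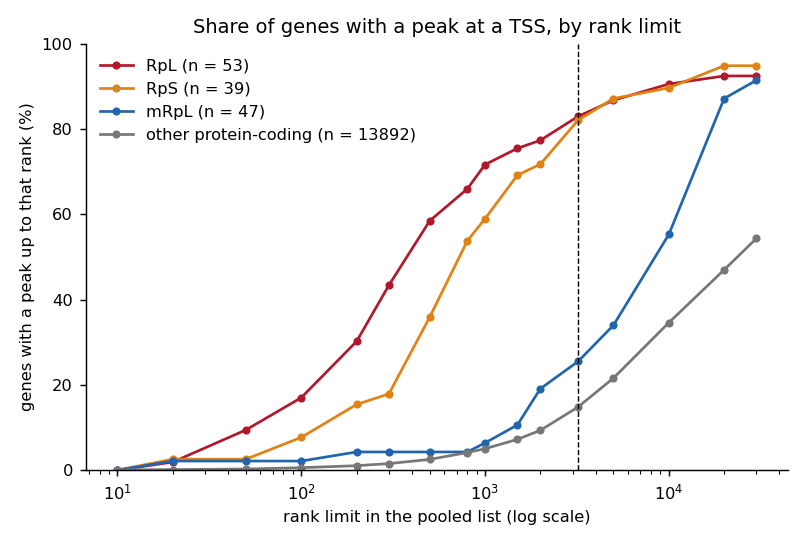
Share of genes (vertical axis, %) that had a peak at a TSS up to a given rank of the pooled list (horizontal axis, log scale), for RpL, RpS, mRpL and other protein-coding genes. At the end of the optimal list (dashed line, rank 3207) the RpL curve stands at 83.0% and that of other protein-coding genes at 14.8%.

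The bound members were found in each replicate. All 44 had a peak at a TSS among the 3207 strongest of each replicate. The optimal list that defines them was made from these replicates, so this was largely set in advance. Counted over all members, 44 of 53 (83%) had such peaks in both replicates, against 11.4% of all protein-coding genes. In both relaxed lists 49 of the 53 had one, against 43.3%. At RpL7-like and RpL24-like, counted among these 49, the summits of the replicates lay 349 and 338 bp apart, so they are different places. Across the 44 the ranks in the replicates had a Spearman's rho of 0.942. This describes genes in 2 libraries compared with a shared control, and no p is given. Ranks were within 1.5 times of each other for 34 of the 44. The ratio of the rank in replicate 4 to that in replicate 3 was highest for RpL26 (97 and 292, ratio 3.01), RpL30 (2.60), RpL27A (305 and 695, ratio 2.28) and RpL4 (201 and 382, ratio 1.90), all of which ranked better in replicate 3. RpL18 was the member that differed most the other way, with ranks 628 and 348 (ratio 0.554). A better rank in replicate 3 was found for 27 members and in replicate 4 for 15. The summits lay a median of 22 bp apart between replicates, and at most 96 bp (RpL34a). For 2050 other bound genes with a row in both replicates the median was 26 bp.

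**Figure D3:**
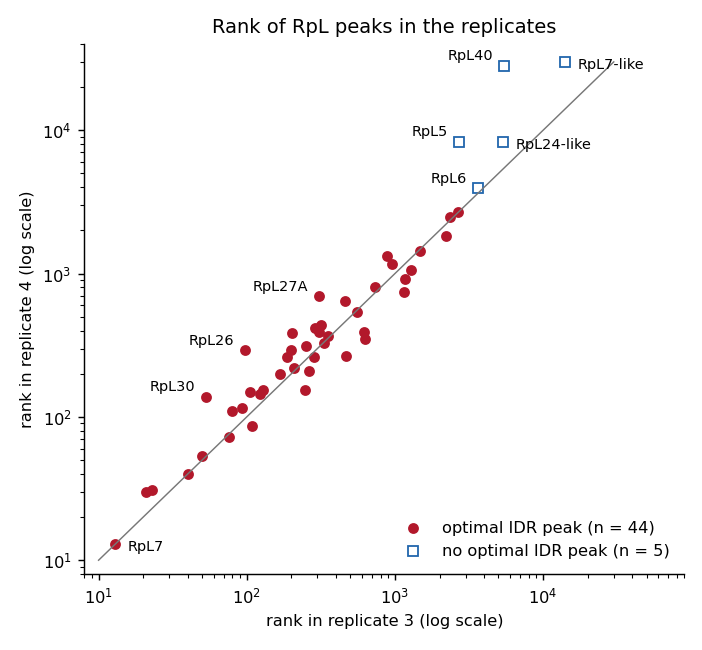
Rank of the strongest peak at each RpL gene in replicate 3 (horizontal) and replicate 4 (vertical), both on log scales, for the 49 genes with a peak in both relaxed lists. Red circles are the 44 members with an optimal IDR peak, open squares those without, and the line marks equal ranks. All open squares (RpL6, RpL5, RpL24-like, RpL40 and RpL7-like) lie above the line, with poorer ranks in replicate 4, RpL6 only slightly.

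The peaks sat almost on the start site. The median distance from summit to nearest TSS of the gene was 25 bp for the 44 bound members (quartiles 12.2 and 41), against 128 bp (62 and 221) for the other 2057 bound genes. Within 50 bp of a TSS lay 35 of the 44 summits (79.5%), against 19.8% for other bound genes. The rule allowed any distance up to 500 bp, but no member used more than 121 bp. Upstream of the TSS lay 32 members' summits (72.7%) and downstream 12, against 83.1% upstream for other bound genes. The median position was 17 bp upstream (-17) for members and -112 for other bound genes. RpL15 (121) and RpL35 (-117) were the farthest, and both were among the weakest bound members. RpL34a (-94), RpL26 (-90) and RpL23A (-82) followed. Among other genes with a peak of rank 500 or better the distance was 168 bp (n = 349), and 27 bp among the 31 members that strong. Where each peak was counted only for the gene with the nearest TSS, the medians were 25 bp for 43 members and 97 bp for 1479 other genes. The difference was not tested, since the members were chosen with earlier results known.

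**Figure D4:**
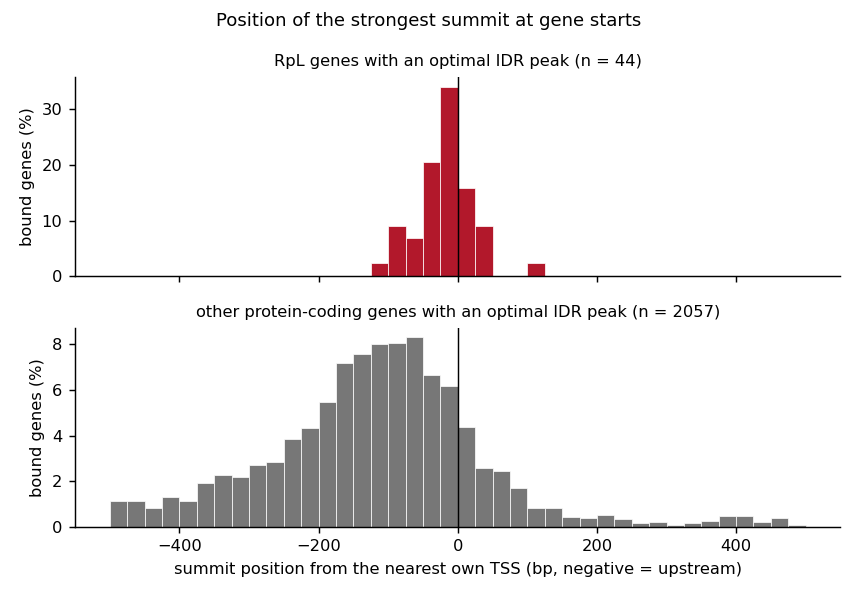
Position of the strongest optimal summit from the nearest TSS of the gene in bp (horizontal axis, negative upstream, bins of 25 bp), as a share of bound genes (vertical axis, %), for 44 RpL genes (top) and 2057 other protein-coding genes (bottom). The RpL summits lie between -117 and 121 bp, and those of other genes spread over the whole window with most of them upstream.

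Peaks at members were also narrow. The most common width in the pooled list was 416 bp, and 34 of the 44 members' peaks (77.3%) were narrower, with a median of 272 bp and a range from 116 bp at RpL10Ab to 416 bp. Among other bound genes 17.5% were narrower. The contrast was small among strong peaks: at rank 500 or better 96.8% of 31 members and 82.2% of 349 other genes had a narrower peak, with median widths of 264 and 265 bp.

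Many members share their start region with another gene, and a peak there cannot be assigned to either. Of the 44 bound members, 24 had another gene's TSS within 500 bp of the summit, in 19 cases that of a protein-coding gene. This share was not counted for other bound genes. By annotation alone, 11 of the 53 members and 7208 of 13892 other protein-coding genes had no other TSS within 1000 bp. For the strongest 5 of the 24 with another TSS within 500 bp of the summit, the summit lay nearer to the ribosomal protein gene. At RpL7 the summit was 36 bp from its own TSS and 66 bp from that of Ripalpha, whose product is named for its interaction with replication protein A. At RpL14 the values were 17 bp and 110 bp for Nelf-E, a subunit of the complex that pauses RNA polymerase II. At RpLP0 they were 24 bp and 312 bp (CG7130), at RpL41 79 bp and 103 bp (NaCP60E, a sodium channel gene) and at RpL13A 30 bp and 319 bp (Dph4 and Spec2). RpL15 was the only bound member whose summit was nearer to another annotated start, that of snoRNA:Me18S-G1358c 6 bp away and inside the RpL15 gene. Of 11 members with no other TSS within 1000 bp of theirs, 7 were bound (63.6%), against 7.55% of 7208 other genes with such a lone start.

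Members without an optimal peak were 9, and 5 of these share a name stem with another member. RpL6 had the strongest peak outside the list, at pooled rank 3417 with ranks 3612 and 3936 in the replicates (3R, 31595987 to 31596402), 9 bp from its TSS. RpL5 had pooled rank 3878 and stood at rank 2694 in replicate 3 but 8336 in replicate 4 (2L, 22536459 to 22536874), so it would count as bound in replicate 3 alone. RpL40 differed in the same direction, with rank 5485 in replicate 3 and 28122 in replicate 4, with a summit 12 bp from the TSS in the pooled list (2L, 4227503 to 4227918). These genes, like the bound ones, had their summit near the TSS. RpL21 had a peak of rank 8528 in replicate 4, none in replicate 3 and rank 19258 in the pooled list (2L, 22247656 to 22248071), where the authors' −log10 q-value was 0.294. That value is low beside the 3.89 of RpL6, of RpL5 and of all optimal peaks.

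In 5 of 6 pairs of members that share a name stem only 1 gene was bound. RpL7 stood at rank 13, while RpL7-like, whose protein is 32.7% identical and is related to a yeast ribosome assembly factor, had no row in the pooled list and separate rows in the replicates, at rank 14136 and -68 bp in replicate 3 and at rank 29971 and -417 bp in replicate 4. RpL24 stood at rank 131 and RpL24-like, a relative of another yeast assembly factor, at 6871, with rank 5347 at 5 bp in replicate 3 and rank 8331 at -333 bp in replicate 4 (27.8% identity; 3R, 11431382 to 11431797). RpL22 stood at 101, and RpL22-like (41% identity) had no row within 500 bp in any of the 4 lists. RpL10Ab stood at 991 (replicate ranks 953 and 1172), and RpL10Aa (63.6% identity) had none. RpL37-1 stood at 330 (330 and 328), and RpL37-2 (72% identity) had none. The pair with the highest identity, RpL34a and RpL34b at 79.5%, was bound at both copies, with pooled ranks 394 and 205 and replicate ranks of 308 and 389 for RpL34a and 207 and 219 for RpL34b. The nearest pooled summit lay 41033 bp from the TSS of RpL10Aa, 7447 bp from that of RpL22-like, 3283 bp from that of RpL37-2 and 600 bp from that of RpL7-like. A list cannot tell a lack of binding from a lack of reads that map to a single place. Of the 32-base words in the 500 bp to each side of these 4 starts, 100% occur once in the reference genome, and at RpL40 98.7% do; the lowest value was 93.2%, at RpL17, which is bound. The read length is not given in the sources used here.

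The starts of the members share a sequence that the rule did not use. A TCT initiator, searched as CTTTCC or CTTTCT or CTTTTC or CTTTTT on the gene's strand beginning within 10 bp of a TSS, was found at 45 of the 53 members (84.9%), against 5.09% of all protein-coding genes. In these 45 the match began a median of 4 bp after the annotated TSS, between 2 and 7 bp after it in 34 of them, as in the sequences of RpL23A, RpL13A and RpL10Ab above. Genes with many TSSs have more places to match. With a single TSS a gene the shares were 69.8% and 3.55%. The match did not separate bound members from the rest: it was present at 38 of 44 with an optimal peak and at 7 of 9 without. RpL10Aa and RpL24-like were the members with neither. Among bound genes that are not members, 8.65% had it. No match says only that these letters are not in the window.

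Among motifs known from other promoters, the DNA replication-related element (DRE) was more frequent at members than in the background and the E-box less so. All were searched on both strands within 150 bp of the TSS nearest to the summit, or of the most 5' TSS where there was no peak. The DRE, TATCGATA, was found at 13 members (24.5%), against 8.17% of all protein-coding genes and 12% of the other bound genes. Within 50 bp of the TSS the shares were 15.1% and 5.27% of all protein-coding genes. The core of Motif 1, GGTCACACT, was at 6 members (11.3% against 5.5%). The GATA site AGATAA was at 13 (24.5% against 16.3%). Within 50 bp of the TSS it was at 0 of the 53 members against 4.04%, a share that leaves few matches among 53 genes. Within 100 bp of the summit it was at 20.5% of bound members against 11.5% of other bound genes. The DRE and the GATA site share the letters GATA, but neither contains the other. The TATA box TATAAA was at 18 (34% against 39.3%). Within 50 bp of the TSS it was at 3 members (5.66%), against 16.7% of all protein-coding genes and 9.09% of other bound genes. The CCAAT box, the short word CCAAT, was at 21 (39.6% against 47.1%). Within 50 bp of the TSS the CCAAT box was at 18.9% of members against 17.1%, near the background. The E-box CAGCTG was at 2 members (3.77% against 18.6%), namely RpL10Aa and RpL7-like, so at none of the 44 bound ones, whereas 25.3% of other bound genes had it. None of the 6 motifs was found at 13 members, 12 of them bound, from RpL23A at rank 22 to RpL35 at rank 2016. By contrast RpL7, RpLP0 and RpL41 held at least 1. The share of other genes with none of the motifs was not counted, so these 13 have no background. A match is a description and not a site.

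Small subunit genes, the partners of these members in the ribosome, were bound at a share near that of the members, and their median rank was weaker. Of 39 RpS genes 32 were bound (82.1%), with a median rank of 589, and 14 (35.9%) had rank 500 or better. Their summits lay a median of 21 bp from a TSS. Genes for the large subunit of the mitochondrial ribosome (mRpL) had 12 of 47 bound (25.5%), with a median rank of 1747.5 and a median distance of 136 bp. Of 14 assembly factors of the large subunit 7 were bound (50%), with a median rank of 1287 and a distance of 122 bp. RpLP0-like was among these, at rank 1287, 45 bp upstream of its TSS. No test of these differences was made.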

How the data were processed

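Whole-embryo chromatin precipitated for GFP was sequenced in 2 samples of 1 group. The authors deposited narrowPeak lists; in the deposited dm6 lists column 7 holds the caller's signal, column 9 a −log10 q-value and column 10 gives how far the summit is from the peak's start, a deposited number of bases. Per the deposited readme files, the relaxed lists come from each replicate or both, with a shared control, and the optimal list from these. The aligner and peak caller, with their versions, were not given in the sources used here. The 4 lists in dm3 were not used.

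TSSs are from Ensembl release 115 and sequences from the Release 6 RefSeq genome, whose arm lengths exceed every peak end. Each gene took its strongest row with a summit within 500 bp of any of its TSSs. Proteins were translated from the longest coding sequence and aligned globally with BLOSUM62 (Biopython 1.88). Python 3.11.15, pandas 2.3.3 and SciPy 1.17.1 were used. The step that assigns peaks to genes was tested on simulated peaks, and the motif and sequence steps were not. The members and lists were chosen with earlier results of these data known. Roles, the printed starts and the 7-base words were chosen after values were seen. Values in full follow a rule: the 10 strongest members, those without an optimal peak and those in pairs that share a name stem. It also takes the 5 farthest from a TSS, the 5 with the largest ratio of replicate ranks and the 5 strongest with a shared start. The values of 1 member are not reported here, though it is counted. Alternatives are given at the end. No tests were made.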

Additional observations from a re-analysis of the deposited data

How the results depend on the processing

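The count of bound members kept its value of 83.0% with TSS distances of 250 and 1000 bp, with peaks that overlap a TSS and with the most 5' TSS only, and stood at 81.1% with nearest genes only and 77.4% with the upper part of the optimal list alone (the peaks up to its middle rank), which leaves out RpL10, RpL15 and RpL35. With replicate 3 or 4 alone it was 83.0 to 84.9%, the 44 bound members being the same and RpL5 joining them in replicate 3. Members with a lone start had 63.6% bound (7 of 11), a median rank of 330 and a distance of 17 bp. RpS genes with a lone start had 60%. The median rank was 286 to 301 with a replicate alone. The median distance was 21 to 24.5 bp with a replicate alone and 31.5 bp with the most 5' TSS only. TCT initiators were found at 62.3% of members within 5 bp and at 69.8% with a single TSS a gene, an alternative chosen after seeing the data. The DRE was at 15.1% within 50 bp of the TSS and at 25% of bound members within 100 bp of the summit, beside 24.5%. The number of pairs sharing a name stem with both genes bound stayed at 1 in 8 alternatives and was not run for lone starts. What depth limits is unknown. No paired analysis was possible because there is only 1 group.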

Other observations

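Words of 7 bases within 50 bp of the summits (both strands) were also counted, after seeing the data. They were ranked by the difference in share between members and other bound genes. Those named here come from the words with the largest difference, so large gaps follow from the choice. The values are descriptions of the 44 bound members. Summits of members lay a median of 25 bp from a TSS and those of other bound genes 128 bp. The windows thus cover different parts of the starts, and this was not adjusted for. The word AAAAGAA was at 38.6% of members against 5.54% of 2057 other bound genes. CCGGAAA was at 12 members (27.3%) against 1.65%, and CGTTTCC at 11 (25%) against 1.22%. GCCACAC was at 9 members (20.5%) against 1.85%. Some of these words share letters with each other or with the TCT initiator, and overlapping words are not independent.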
